A study of Mus musculus with 30 samples.

Results

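Cyclic nucleotide phosphodiesterases, the enzymes that break down cyclic AMP and cyclic GMP, were followed at the transcript level in mouse macrophages. The 9 genes named for this purpose were Pde1b, Pde2a, Pde3b, Pde4a, Pde4b, Pde4d, Pde7a, Pde7b and Pde8a, and 8 of them had a row under their own Ensembl ID among the 43629 gene IDs of the count files. Pde2a did not: the ID that GENCODE M21 gives it is not among the IDs of these files. A gene model at the same place, Gm45837, does have a row and shares 3955 exon bases with Pde2a, which is 64.3% of the exon bases of Pde2a and 95.6% of its own. Its values are given apart and are not counted among the 8.

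The cells were bone marrow derived macrophages of C57BL/6 mice, grown to day 7 in CSF-1 (20 ng/mL), the growth factor that turns marrow progenitors into macrophages. Wild type cells were given IL-4 (20 ng/mL) with prostaglandin E2 (PGE2, 10 µM), IL-4 with valinomycin (10 nM), IL-4 alone, or no stimulus. Cells carrying an Etv1 short hairpin RNA (shRNA) and cells carrying a control shRNA, both delivered by lentivirus, were given IL-4 with PGE2, IL-4 alone, or no stimulus. Each of these 10 groups had 3 libraries of messenger RNA. IL-4 drives alternative activation of macrophages, valinomycin carries potassium ions across membranes and so discharges mitochondria, and Etv1 is a transcription factor of the ETS family. All groups, controls included, were kept in CSF-1. The labels give no stimulation time, no hairpin sequence and no age of the mice, each hairpin forms 1 group of cells, and it is not stated whether the 3 libraries of a group came from separate mice or cultures, so the p-values measure the spread between these libraries, which may be technical.

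PGE2 binds receptors on the macrophage surface, of which EP2 and EP4 (genes Ptger2 and Ptger4) act through the stimulatory G protein to switch on adenylyl cyclase. The cyclic AMP that results activates protein kinase A (PKA), which phosphorylates the factor CREB, and CREB turns on genes that hold a cyclic AMP response element. Phosphodiesterases end the signal, and several of their genes are known targets of cyclic AMP, a negative feedback. PDE3 hydrolyses cyclic AMP and is inhibited by cyclic GMP, the PDE4, PDE7 and PDE8 enzymes are specific for cyclic AMP, PDE1 is activated by calcium and calmodulin and takes both nucleotides, and PDE2 is stimulated by cyclic GMP. PDE4 is the main target of rolipram and related anti-inflammatory drugs in myeloid cells.

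Library totals were 10514496 to 13414293 counts for wild type cells and 6924973 to 30473040 for shRNA cells, and all 8 genes passed the filter on low counts in both. Levels are given as CPM, the usual count scaled to library size, here with TMM within an experiment, so they are compared within and not between experiments. A gene was called at an edgeR adjusted p under 0.05 over all genes tested, and log2 fold changes carry their standard error (SE). Etv1 itself, the target of the hairpin, had 8.89 ± 1.08 CPM in Etv1 shRNA and 28 ± 5.73 CPM in control shRNA cells given IL-4 with PGE2 (SD, n = 3), and it was lower with its hairpin in the other conditions as well (log2 fold change -1.39 ± 0.19 with IL-4 and -1.69 ± 0.20 unstimulated). The 7 macrophage markers examined (Adgre1, Csf1r, Cd68, Itgam, Mertk, Fcgr1 and Lyz2) summed to 14300 to 18800 CPM in wild type libraries, 8780 to 10000 in Etv1 shRNA and 15800 to 19700 in control shRNA libraries. Markers of neutrophils summed to 212 to 342 CPM in wild type and 0 to 2.46 CPM in shRNA libraries. Those of dendritic cells reached at most 5.41 CPM, of lymphocytes 1.84, of stromal cells 6.8 and of mast cells and basophils 5.24. Of the 6 lymphocyte markers, Cd3e and Ncr1 were at 0 counts in all 3 wild type groups given IL-4 and in every shRNA group. The other lymphocyte markers had counts in those wild type groups, and all 6 had counts in unstimulated wild type cells. The control shRNA libraries numbered 2 stood apart from libraries 1 and 3 in every condition: the chi-square per degree of freedom of their counts was 12.943 to 21.869 in pairs with library 2 and 2.93 to 4.888 between libraries 1 and 3. What sets them apart was not tested, and calls of the 8 genes that change without all 3 of them, an alternative chosen after seeing the data, are given with both values. In bulk samples such as these, fewer cells of a type and less RNA per cell cannot be told apart.

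Levels of different genes were compared per length, as CPM per kb of exon. The length was that of all annotated exons of a gene merged, from 4045 bases for Pde8a to 12444 for Pde7b. The order of the genes and their shares of a sum depend on these lengths, whichever isoforms the cells make. Without stimulus, Pde1b and Pde8a stood far above the other genes in wild type cells: Pde1b at 21.4 ± 0.899 and Pde8a at 15.4 ± 0.799 CPM per kb (SD, n = 3), with no overlap of their libraries. Pde7a (3.22 ± 0.213), Pde4a (2.93 ± 0.207) and Pde3b (2.8 ± 0.267) followed, and each of these overlapped the next in its library values. Pde7b reached 1.58 ± 0.126, and Pde4b (0.359 ± 0.0241) and Pde4d (0.168 ± 0.0502) were at the bottom of the order.

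The summed level of the 8 genes in wild type cells was 95 ± 1.94 CPM per kb with IL-4 and PGE2, 41 ± 1.19 with IL-4 and valinomycin, 37.3 ± 0.678 with IL-4 and 47.8 ± 0.199 without stimulus. Within that sum the makeup differed. Pde3b made up 20.7 ± 0.141% with PGE2 and 5.09 ± 0.263% with IL-4 alone, and Pde4b 16.6 ± 1.26% with PGE2 and 4.65 ± 0.477% with IL-4 alone. Pde1b took 11.9 ± 0.79% with PGE2 and 36.4 ± 3.36% with IL-4 alone. The share of Pde8a was 37.6 ± 1% with PGE2 and 35.7 ± 2.26% with IL-4, and these ranges overlapped.

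**Figure D1:**
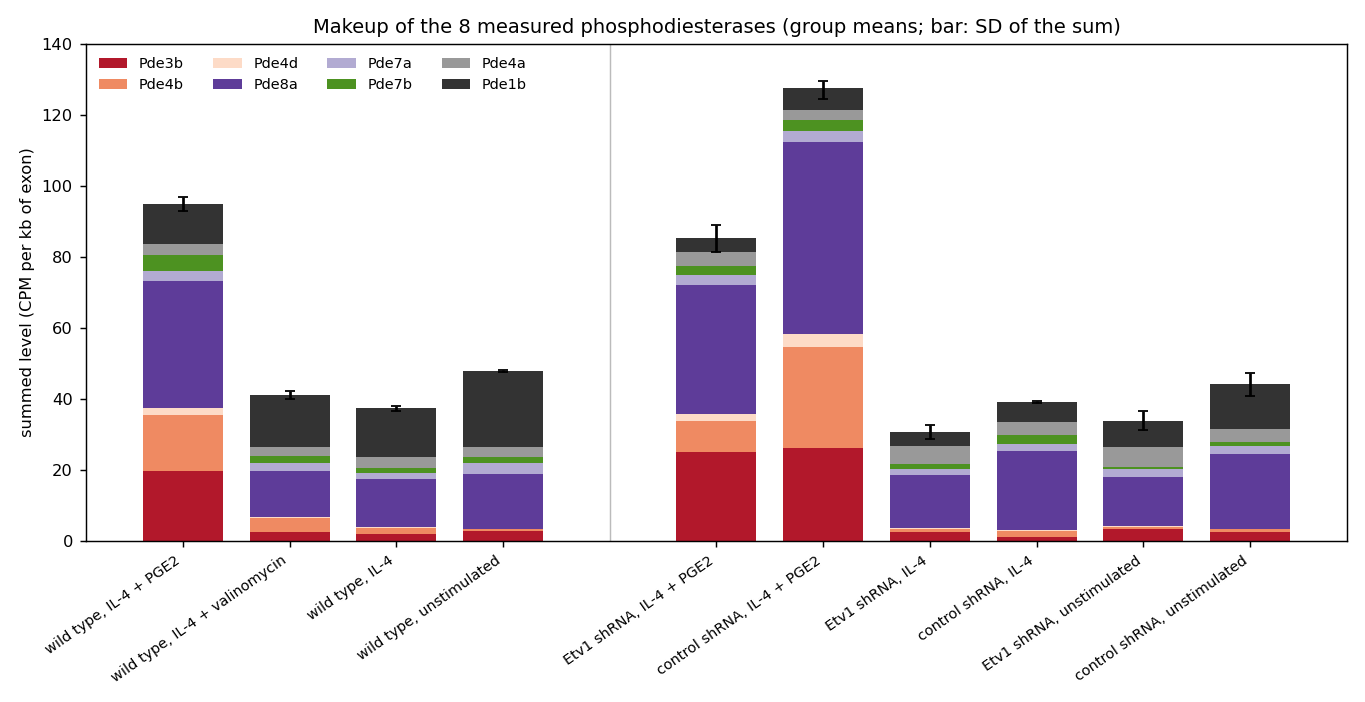
Summed level of the 8 phosphodiesterase genes (y axis, CPM per kb of exon) in each group (x axis), stacked by gene from group means, with the SD of the sum over 3 libraries as an error bar. The sum reached 95 with PGE2 against 37.3 with IL-4 in wild type cells, and Pde3b, Pde4b and Pde8a made up most of the added height.

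RefSeq gave 18 promoter windows (GRCm38.p6, 250 bases before to 50 after a start) for 7 of the 9 named genes. Pde3b and Pde7a had none in the table. They were searched on both strands for the full cyclic AMP response element TGACGTCA, its short form TGACG and the ETS core GGAAG. None of the 18 windows held the full element, which 1.79% of 32817 mouse windows of this length hold. The short form was in 4 of the 18 (20.8% of all windows hold it), 1 each for Pde2a, Pde4a, Pde4b and Pde8a, and the ETS core was in 10 of the 18 (71.4% of all windows). The short form lies inside the full element, so the searches overlap. The stretches around the short forms are shown for the 3 measured genes that have one, since 2 of them, Pde4b and Pde8a, are among those that PGE2 raised and the other, Pde4a, is not. Capitals mark the short form, on the minus strand in Pde4a and Pde4b, where it reads CGTCA, and on the plus strand in Pde8a.
Pde4b, chr4:102421493-102421553, plus strand, short form 34 bases before the start: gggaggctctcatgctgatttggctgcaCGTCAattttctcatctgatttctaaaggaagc
Pde8a, chr7:81213153-81213213, plus strand, short form 84 bases before the start: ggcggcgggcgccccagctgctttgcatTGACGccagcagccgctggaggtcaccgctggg
Pde4a, chr9:21184023-21184083, plus strand, short form 50 bases before the start: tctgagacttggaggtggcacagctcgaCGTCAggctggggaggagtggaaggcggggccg
A match is a description of the letters and not evidence of binding. The window of Pde4d and the 3 of Pde1b held neither form of the element, and the single window of Pde7b held ETS cores only.

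PGE2 was added to IL-4 to ask what it changes in alternatively activated cells. In wild type macrophages 6 of the 8 phosphodiesterase genes rose and 1 fell, with a median log2 fold change of 1.6, where 59.4% of all 12824 genes tested were called and their median was 0.01. Of all genes 29.9% were called higher and 29.5% lower. The 8 were chosen with earlier results of these data known, so this count and median are a description and not a test. The largest rises were those of Pde3b, Pde4b and Pde4d, each 6.68-fold or more. The libraries of all 7 called genes did not overlap between the groups, and this was not set against the share of all genes without overlap.

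Pde3b (ENSMUSG00000030671, chromosome 7, 114415281 to 114539251, GRCm38), which encodes the cyclic GMP inhibited enzyme known from adipocytes and liver, had 175, 179 and 184 CPM in the 3 libraries with PGE2, against 18.3, 17.1 and 16.6 CPM with IL-4 alone. That is a 10.4-fold rise (log2 fold change 3.38 ± 0.07, edgeR adjusted p = 5.69e-21), and every PGE2 library lay above every other library of the experiment. Pde4b (ENSMUSG00000028525, chromosome 4, 102087543 to 102607259), the PDE4 gene that mouse macrophages need for full TNF production after endotoxin, stood at 150, 169 and 182 CPM with PGE2, against 20.4, 18 and 16.6 CPM with IL-4. It rose 9.13-fold (3.19 ± 0.08, adjusted p = 5.41e-20). Pde4d (ENSMUSG00000021699, chromosome 13, 108449948 to 109953461), the long gene of a related PDE4 enzyme, had 25.8, 22.7 and 24.6 CPM with PGE2, against 4.01, 3.99 and 2.97 CPM with IL-4. The rise was 6.68-fold (2.74 ± 0.14, adjusted p = 7.24e-14) and rests on 854 counts with PGE2 and 134 with IL-4 over 3 libraries each.

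Genes of the PDE7 and PDE8 families moved less. Pde7b (ENSMUSG00000019990, chromosome 10, 20398004 to 20725078) reached 55.5, 59.8 and 59 CPM with PGE2, against 15.1, 16.1 and 19.6 CPM with IL-4, a 3.42-fold rise (1.77 ± 0.09, adjusted p = 2.19e-13). Pde8a (ENSMUSG00000025584, chromosome 7, 81213596 to 81334533), whose enzyme has a very high affinity for cyclic AMP, had 146, 142 and 146 CPM with PGE2, against 55.8, 51 and 55.1 CPM with IL-4. It rose 2.68-fold (1.42 ± 0.05, edgeR adjusted p = 1.6e-16) and was the most abundant member per length in the PGE2 libraries, at 35.7 ± 0.499 CPM per kb. By CPM, not divided by length, Pde3b and Pde4b stood above Pde8a in these libraries. Pde7a (ENSMUSG00000069094, chromosome 3, 19223108 to 19311322) stood at 20.8, 20.2 and 21.9 CPM with PGE2 and at 16.7, 12.8 and 15 CPM with IL-4, a 1.42-fold rise (0.50 ± 0.10, adjusted p = 0.00017). These PGE2 levels of Pde7a were below the 24.6, 26.7 and 23.5 CPM of unstimulated cells.

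The other PDE4 gene and the PDE1 gene did not take part in the rise. Pde4a (ENSMUSG00000032177, chromosome 9, 21165714 to 21213248) had 22.9, 24.7 and 23.6 CPM with PGE2 and 22.3, 25.1 and 26.1 CPM with IL-4, and the groups overlapped. Its log2 fold change of -0.05 had a 95% interval of -0.23 to 0.13 and an adjusted p of 0.611. Pde1b (ENSMUSG00000022489, chromosome 15, 103503034 to 103530052), the calmodulin-dependent gene, fell to 60.6, 64.8 and 57.7 CPM with PGE2, against 69.7, 82.6 and 67.7 CPM with IL-4. The log2 fold change was -0.26 ± 0.07 (edgeR adjusted p = 0.00183). Pde1b was the most abundant member per length with IL-4 alone, beside Pde8a whose libraries overlapped it. With PGE2 it was the fourth, below Pde8a, Pde3b and Pde4b, which had all risen.

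**Figure D2:**
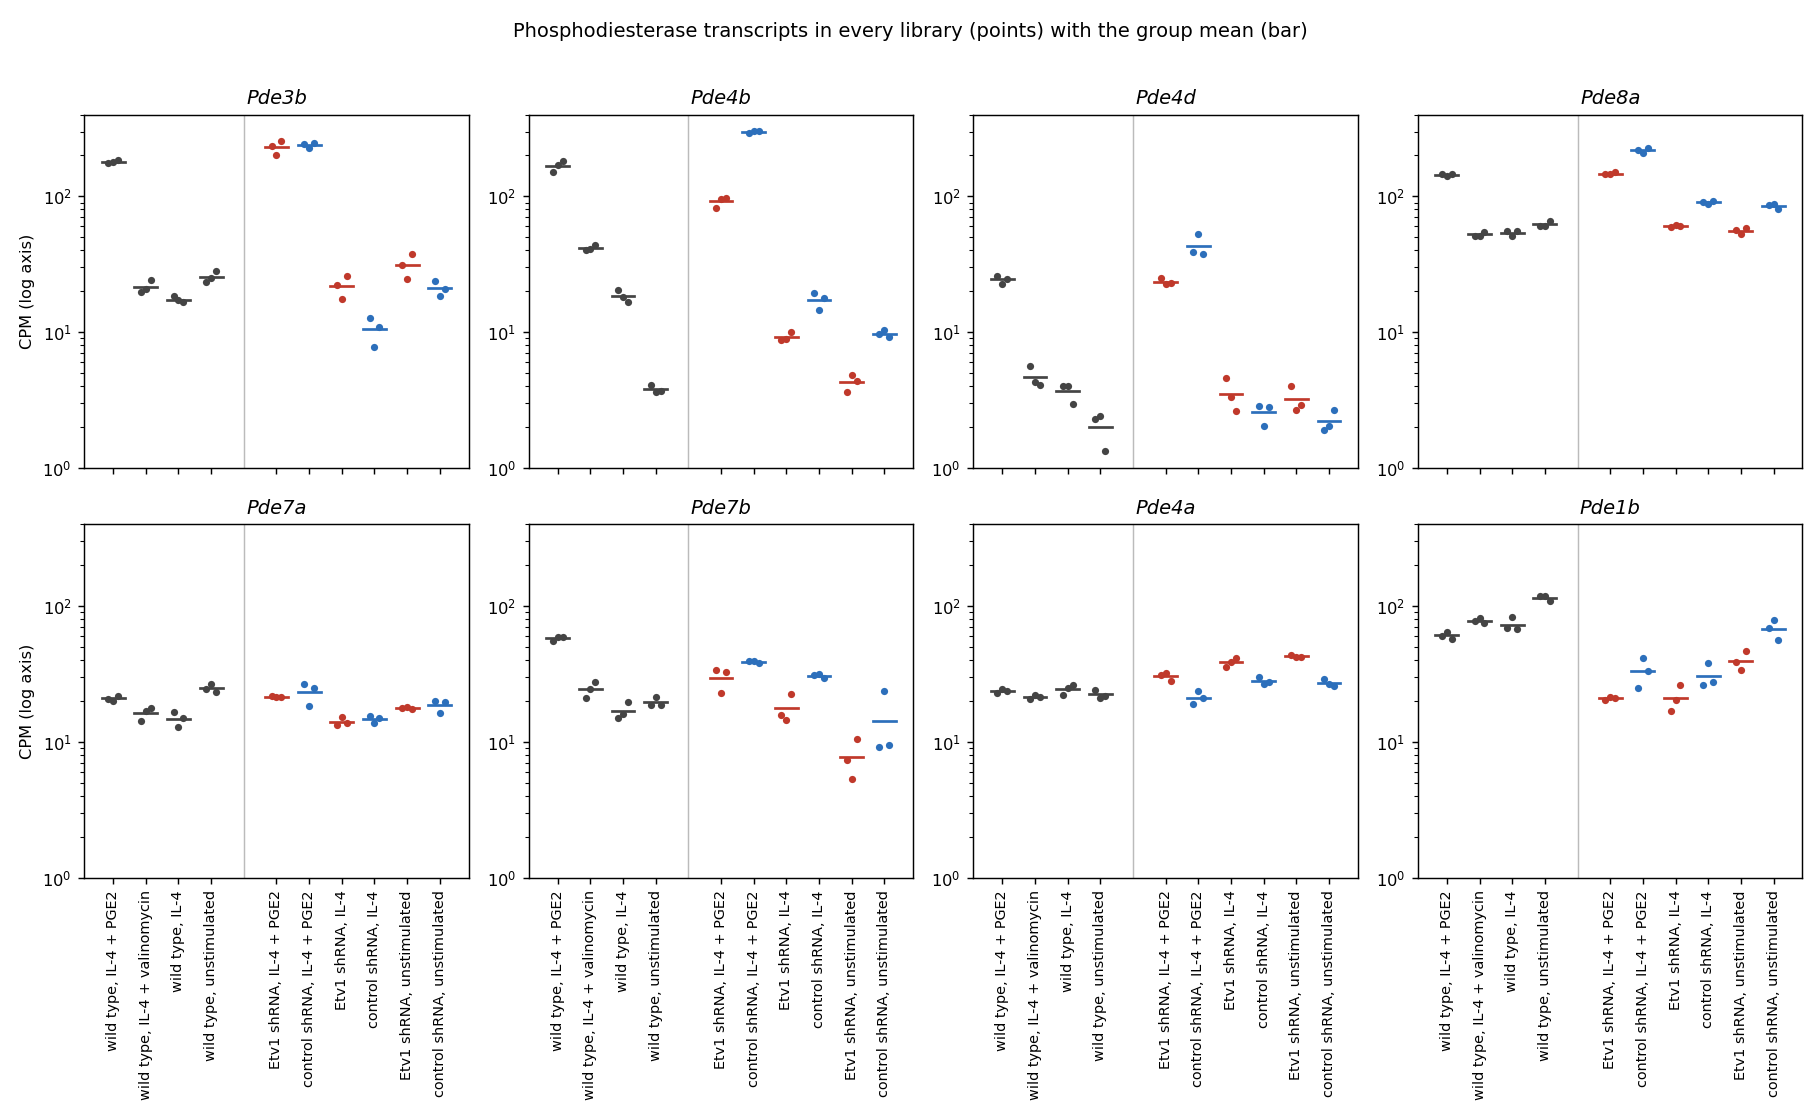
CPM of the 8 genes on a log axis (y) in each of the 10 groups (x), 1 point per library and a bar at the group mean, wild type libraries in grey, Etv1 shRNA in red and control shRNA in blue. Pde3b, Pde4b, Pde4d and Pde8a lie highest in the 3 groups with PGE2, while Pde7a and Pde4a stay between 12.8 and 43.4 CPM in all libraries.

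Valinomycin was added to IL-4 in wild type cells to set a loss of mitochondrial membrane potential beside PGE2. Of the 8 genes 3 rose with it, Pde4b, Pde7b and Pde3b, and none fell, where 38.4% of all genes were called. Pde4b had 40.4, 40.7 and 43.8 CPM with valinomycin, against 20.4, 18 and 16.6 CPM with IL-4, a 2.28-fold rise (1.19 ± 0.09, edgeR adjusted p = 1.46e-10) with separate groups. Pde7b stood at 21.1, 24.4 and 27.8 CPM with valinomycin, against 15.1, 16.1 and 19.6 CPM with IL-4 (0.52 ± 0.10, adjusted p = 0.000324). Pde3b had 19.6, 20.7 and 24 CPM, against 18.3, 17.1 and 16.6 CPM (0.31 ± 0.09, adjusted p = 0.00751), and without the third valinomycin library its value was 0.23 with adjusted p = 0.0542. For Pde4a the log2 value was -0.20 ± 0.08 (adjusted p = 0.0564), for Pde4d 0.36 ± 0.19 (0.136), and the remaining 3 genes lay between -0.04 and 0.14.

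The PGE2 and valinomycin comparisons share their IL-4 libraries, so the treatments were also set against each other. With PGE2 6 genes were higher and 1 lower than with valinomycin, where 63.2% of all genes were called. The log2 differences were 3.07 ± 0.07 for Pde3b, 2.38 ± 0.14 for Pde4d, 2.00 ± 0.07 for Pde4b, 1.46 ± 0.05 for Pde8a, 1.25 ± 0.09 for Pde7b and 0.36 ± 0.10 for Pde7a, and -0.35 ± 0.07 for Pde1b (edgeR adjusted p = 0.0028 for Pde7a, and smaller for the other 6). Pde4a differed by 0.15 ± 0.08 (adjusted p = 0.12).

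IL-4 alone was set against no stimulus. In wild type cells it raised Pde4b and Pde4d and lowered Pde1b, Pde3b, Pde7a and Pde8a, 6 of 8 genes, where 46.4% of all genes were called. Pde4b had 20.4, 18 and 16.6 CPM with IL-4, against 4.09, 3.63 and 3.67 CPM without stimulus (2.27 ± 0.13, edgeR adjusted p = 5.77e-13), the largest change of a member. Pde4d stood at 4.01, 3.99 and 2.97 CPM with IL-4, against 2.3, 2.42 and 1.32 CPM without (0.88 ± 0.22, adjusted p = 0.00232). Both genes thus had their order unstimulated, IL-4, valinomycin, PGE2 from low to high, with no overlap between neighbours, although Pde4d did not pass the test for valinomycin against IL-4.

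Pde1b fell to 69.7, 82.6 and 67.7 CPM with IL-4, against 119, 118 and 110 CPM without stimulus (-0.65 ± 0.06, edgeR adjusted p = 9.79e-09). Pde7a fell to 16.7, 12.8 and 15 CPM, against 24.6, 26.7 and 23.5 CPM (-0.75 ± 0.10, adjusted p = 9.3e-07). Pde3b fell to 18.3, 17.1 and 16.6 CPM, against 23.4, 24.9 and 28.2 CPM (-0.56 ± 0.09, adjusted p = 7.16e-06), so its level under IL-4 was the lowest of the 4 conditions and its level under PGE2 the highest. The change of Pde8a was small, -0.21 ± 0.06 (adjusted p = 0.00394), and those of Pde7b (-0.21 ± 0.11, 0.115) and Pde4a (0.13 ± 0.08, 0.191) did not pass the test. IL-4 and PGE2 comparisons also share the IL-4 libraries.

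The PGE2 comparison was repeated in both shRNA populations. In Etv1 shRNA cells 5 genes rose and 1 fell (47.5% of all 12382 genes tested were called), and in control shRNA cells 5 rose and 1 fell (59.4% of all genes). The genes that rose were Pde3b, Pde4b, Pde4d, Pde8a and Pde7a in each, and the one that fell was Pde4a, which was not called in wild type cells. Medians over the 8 genes were 1.02 in Etv1 shRNA and 0.97 in control shRNA cells, against 0.01 and -0.01 over all genes. Here too the choice of genes makes the medians a description and not a test.

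Pde3b had 233, 200 and 254 CPM in Etv1 shRNA cells given PGE2, against 22.1, 17.5 and 25.9 CPM with IL-4 alone, a log2 fold change of 3.39 ± 0.17. In control shRNA cells it had 242, 225 and 248 CPM with PGE2, against 12.7, 7.79 and 10.9 CPM with IL-4, a change of 4.48 ± 0.19. The PGE2 levels of the hairpin populations overlapped, while the IL-4 levels did not. Pde4b had 82.4, 95.8 and 97 CPM with PGE2 in Etv1 shRNA cells, against 8.8, 8.84 and 9.96 CPM with IL-4 (3.31 ± 0.10). Its control shRNA values were 294, 305 and 303 CPM with PGE2, against 19.4, 14.6 and 17.9 CPM with IL-4 (4.11 ± 0.09). Here the hairpin populations were apart at both levels, and the gap was wider with PGE2.

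Pde4d stood at 24.9, 22.5 and 22.8 CPM with PGE2 in Etv1 shRNA cells, against 4.55, 3.31 and 2.61 CPM with IL-4 (2.75 ± 0.18). In control shRNA cells it stood at 38.7, 53.1 and 37.3 CPM with PGE2, against 2.86, 2.03 and 2.82 CPM with IL-4 (4.03 ± 0.19). The hairpin populations were separate with PGE2 and overlapped with IL-4. Pde8a rose by 1.29 ± 0.05 in Etv1 shRNA and 1.28 ± 0.05 in control shRNA cells, and Pde7a by 0.61 ± 0.11 and 0.67 ± 0.11. The changes of Pde4a were -0.35 ± 0.08 in Etv1 shRNA (edgeR adjusted p = 0.00186) and -0.42 ± 0.09 in control shRNA cells (0.000453), and Pde4a had 31.3, 32 and 27.9 CPM with PGE2, against 35.4, 38.9 and 41.9 CPM with IL-4 in the Etv1 shRNA libraries.

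Pde7b and Pde1b gave other values than in wild type cells. Pde7b had 33.9, 22.9 and 32.8 CPM with PGE2, against 15.9, 14.5 and 22.6 CPM with IL-4 in Etv1 shRNA cells (0.76 ± 0.31, edgeR adjusted p = 0.0637), and 39.8, 39.3 and 38.2 CPM, against 31.1, 31.5 and 29.4 CPM in control shRNA cells (0.35 ± 0.29, adjusted p = 0.336). In each population the PGE2 libraries lay above the IL-4 libraries without overlap, and the test did not pass with the spread of all 6 groups. Fitted with only the 2 groups of a comparison, the changes were 0.75 with adjusted p = 0.0355 in Etv1 shRNA and 0.34 with adjusted p = 0.00287 in control shRNA cells. Pde1b changed by -0.01 ± 0.22 (adjusted p = 0.965) in Etv1 shRNA and 0.12 ± 0.20 (0.623) in control shRNA cells. Whether these genes respond otherwise in the wild type experiment was not tested across experiments.

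**Figure D3:**
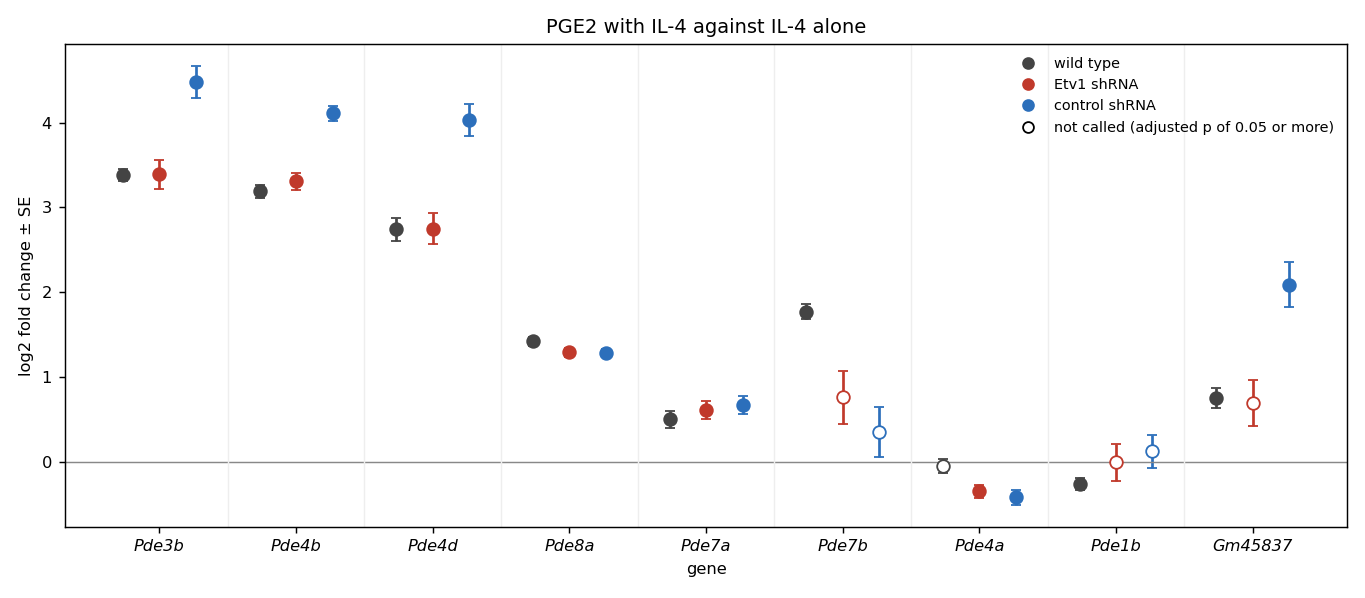
Log2 fold change with its SE (y axis) of IL-4 with PGE2 against IL-4 for each gene (x axis) in wild type (grey), Etv1 shRNA (red) and control shRNA cells (blue), with open symbols where the gene was not called and Gm45837 beside the 8 genes. Pde3b, Pde4b and Pde4d lie at 4.48, 4.11 and 4.03 in control shRNA cells and at 3.39, 3.31 and 2.75 in Etv1 shRNA cells, while Pde8a and Pde7a lie close together.

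The difference between these PGE2 effects was tested directly, Etv1 shRNA minus control shRNA. It was negative for Pde4d (-1.28 ± 0.29, edgeR adjusted p = 0.00564), Pde3b (-1.09 ± 0.26, 0.0124) and Pde4b (-0.79 ± 0.13, 0.000537), and positive and called for none, so 3 of 8 genes were called where 11.6% of all genes were. Without the control shRNA libraries numbered 2, Pde4d (-0.99, adjusted p = 0.0114) and Pde4b (-0.69, 0.000609) were called and Pde3b was not (-0.98, 0.0512). In the remaining 5 genes the difference lay between -0.14 and 0.41 and was not called, and for Pde8a it was 0.01 with a 95% interval of -0.15 to 0.16. Crem, a cyclic AMP responsive factor used as a yardstick, had 188 ± 16 CPM with PGE2 in Etv1 shRNA and 418 ± 26.4 CPM in control shRNA cells, and a difference of effects of -0.88 ± 0.15 (adjusted p = 0.000698). The level of the receptor gene Ptger2 also differed, with 11.2 ± 0.496 CPM in Etv1 shRNA and 30.8 ± 3.56 CPM in control shRNA cells given IL-4, while Ptger4 had 29.3 ± 3.48 CPM in Etv1 shRNA and 20.9 ± 2.22 CPM in control shRNA cells. The part of the receptor levels in the differences was not tested.

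**Figure D4:**
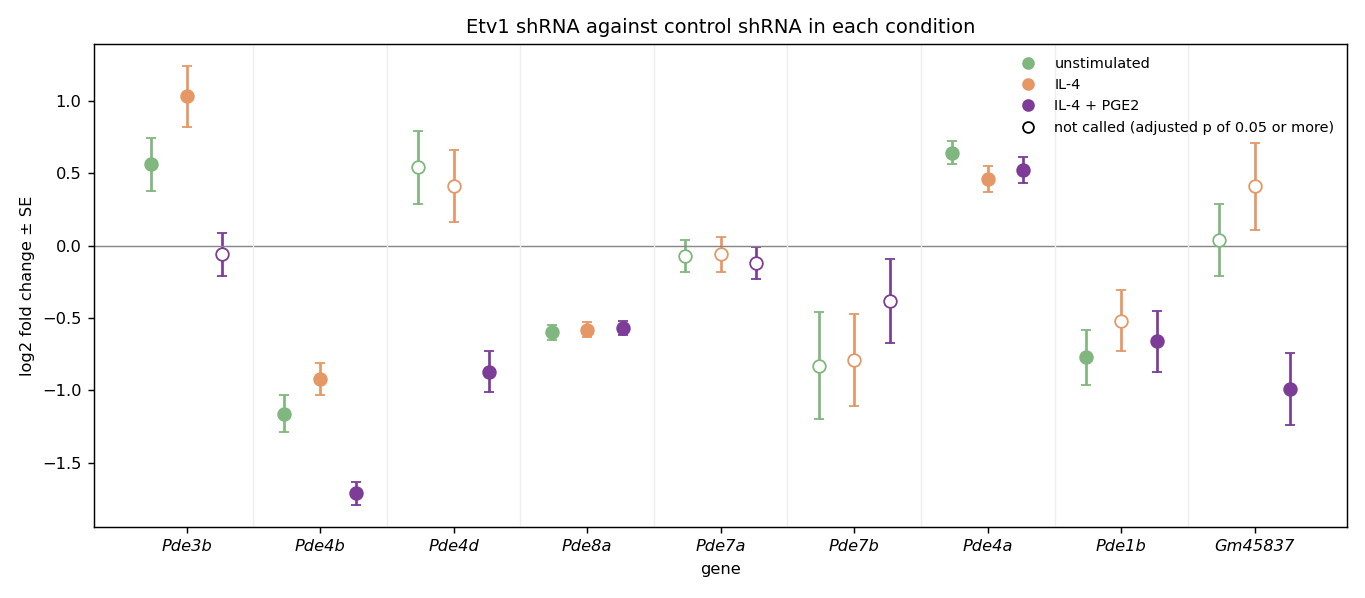
Log2 fold change with its SE (y axis) of Etv1 shRNA against control shRNA for each gene (x axis), unstimulated (green), with IL-4 (orange) and with IL-4 and PGE2 (purple), with open symbols where the gene was not called and Gm45837 beside the 8 genes. Pde4b lies below 0 in all 3 conditions, at -1.16, -0.92 and -1.71, Pde8a stays between -0.60 and -0.57, and Pde4a lies above 0 throughout.

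Etv1 shRNA cells were compared with control shRNA cells within each condition to ask what depends on the factor. With IL-4 and PGE2, 1 gene was higher (Pde4a) and 4 lower (Pde4b, Pde4d, Pde1b and Pde8a), where 54.3% of all genes were called. With IL-4, 2 were higher (Pde3b and Pde4a) and 2 lower (Pde4b and Pde8a), where 51% were called. Without stimulus, 2 were higher (Pde3b and Pde4a) and 3 lower (Pde4b, Pde8a and Pde1b), where 51.7% were called. The members called, 4 or 5 of 8 in each condition, were thus close to the share of all genes. Macrophage markers moved in the same comparisons: 4 of 7 were lower and 1, Adgre1, higher with IL-4 and PGE2, and 5 were lower and 1, again Adgre1, higher in each of the other conditions. Their part in the results was not tested.

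Pde4b had the largest hairpin difference with PGE2 and without stimulus, while Pde3b had it with IL-4. With PGE2 Pde4b had 82.4, 95.8 and 97 CPM in Etv1 shRNA cells, against 294, 305 and 303 CPM in control shRNA cells, 3.28-fold lower (-1.71 ± 0.08, edgeR adjusted p = 1.61e-12). Without stimulus it had 3.63, 4.86 and 4.37 CPM in Etv1 shRNA cells, against 9.68, 10.3 and 9.27 CPM in control shRNA cells (-1.16 ± 0.13, adjusted p = 3.31e-07), and with IL-4 the change was -0.92 ± 0.11 (7.06e-07). In no condition did the libraries overlap. Pde8a was lower by nearly the same amount throughout: 147, 145 and 150 CPM in Etv1 shRNA cells, against 221, 210 and 227 CPM in control shRNA cells with PGE2 (-0.57 ± 0.05, adjusted p = 8.9e-09), with -0.58 ± 0.05 under IL-4 and -0.60 ± 0.05 unstimulated.

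Pde4a went the other way. It had 31.3, 32 and 27.9 CPM in Etv1 shRNA cells, against 18.9, 23.6 and 21 CPM in control shRNA cells with PGE2 (0.52 ± 0.09, edgeR adjusted p = 5.12e-05), 0.46 ± 0.09 with IL-4 (0.000185) and 0.64 ± 0.08 unstimulated (2.98e-06). Pde3b was higher under IL-4, at 22.1, 17.5 and 25.9 CPM in Etv1 shRNA cells, against 12.7, 7.79 and 10.9 CPM in control shRNA cells (1.03 ± 0.21, adjusted p = 0.000832). Its unstimulated difference of 0.56 ± 0.18 (0.0173) was 0.39 with adjusted p = 0.105 without the third unstimulated Etv1 shRNA library, 0.47 with adjusted p = 0.0671 without the second unstimulated control shRNA library, and 0.48 with 0.0704 without all control shRNA libraries numbered 2. With PGE2 its groups overlapped (-0.06 ± 0.15, 0.768).

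Pde4d was lower with PGE2, at 24.9, 22.5 and 22.8 CPM in Etv1 shRNA cells, against 38.7, 53.1 and 37.3 CPM in control shRNA cells (-0.87 ± 0.14, edgeR adjusted p = 2.78e-05), and gave 0.41 ± 0.25 (0.182) with IL-4 and 0.54 ± 0.25 (0.0809) unstimulated. Pde1b was lower with PGE2 (-0.66 ± 0.21, 0.0149) and unstimulated (-0.77 ± 0.19, 0.00353), and its IL-4 value was -0.52 ± 0.21 (0.0541). Leaving out the second control shRNA library with PGE2, which had 41.4 CPM against 24.8 and 33.1 in the others, gave -0.51 with adjusted p = 0.0641 for Pde1b. Pde7a stayed between -0.12 and -0.06, but without the control shRNA libraries numbered 2 it was called lower with PGE2 (-0.27, adjusted p = 0.0081). Pde7b, called in none of them, gave -0.38 ± 0.29 with PGE2 (0.29), -0.79 ± 0.32 with IL-4 (0.0509) and -0.83 ± 0.37 unstimulated (0.0765). Without those libraries its IL-4 value was called (-0.79, 0.0173) and its unstimulated value was -0.24 (0.545).

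IL-4 against no stimulus changed 3 of 8 genes in Etv1 shRNA cells, 2 higher and 1 lower, where 18% of all genes were called, and 5 of 8 in control shRNA cells, 2 higher and 3 lower, where 34.3% were. Pde4b rose in both, by 1.07 ± 0.13 in Etv1 shRNA and 0.84 ± 0.10 in control shRNA cells. Pde1b fell in both, to 17, 20.3 and 26.1 CPM with IL-4 against 39, 33.9 and 46.5 CPM unstimulated in Etv1 shRNA cells (-0.91 ± 0.21, edgeR adjusted p = 0.00625), and by -1.16 ± 0.19 (0.000266) in control shRNA cells. Pde3b gave -0.52 ± 0.18 (0.0696) in Etv1 shRNA and -0.99 ± 0.20 (0.00152) in control shRNA cells, and Pde7a -0.33 ± 0.12 (0.0553) and -0.34 ± 0.11 (0.0256). With the replicate number as a block, Pde3b and Pde7a passed in Etv1 shRNA cells, at -0.52 (adjusted p = 0.000547) and -0.34 (0.0336). The control shRNA call of Pde7a was lost when any of 4 libraries was left out, with values of -0.34 to -0.28 and adjusted p = 0.0599 to 0.119: IL-4 libraries 2 and 3, and unstimulated libraries 1 and 3.

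Pde7b, not called in wild type cells, rose with IL-4 in both hairpin populations. It had 15.9, 14.5 and 22.6 CPM with IL-4, against 7.4, 5.36 and 10.6 CPM unstimulated in Etv1 shRNA cells (1.17 ± 0.37, edgeR adjusted p = 0.0418). That call was lost with the replicate block (1.17, adjusted p = 0.0696) and without any 1 of 5 of the 6 libraries, all but the third unstimulated one (adjusted p = 0.0521 to 0.164). In control shRNA cells it had 31.1, 31.5 and 29.4 CPM with IL-4, against 9.24, 23.6 and 9.57 CPM unstimulated (1.14 ± 0.32, adjusted p = 0.0129). The second unstimulated library stands apart there. Without it the rise was 1.71 ± 0.23 and was still called, without the first unstimulated library it was 0.86 with adjusted p = 0.0634, with only those groups fitted it was 1.13 with adjusted p = 0.113, and without that second library the hairpin difference of unstimulated cells was -0.25 with adjusted p = 0.452. The IL-4 effect did not differ by test between the hairpins for any of the 8 genes with edgeR (none at an unadjusted p under 0.05, and none with DESeq2), where 4.51% of all genes were called. The intervals were wide for some, such as -1.01 to 1.08 for Pde7b.

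The row of Gm45837 (ENSMUSG00000030653, chromosome 7, 101410886 to 101512819), the model that overlaps Pde2a, held 6769 counts over the 30 libraries, and its reads cannot be told apart from those of Pde2a where the exons are shared. It had 14.5, 13.5 and 17.8 CPM with PGE2, against 9.15, 9.81 and 8.2 CPM with IL-4 in wild type cells (0.75 ± 0.12, edgeR adjusted p = 8.37e-06). In Etv1 shRNA cells the change was 0.69 ± 0.27 (0.0522, and 0.70 with 0.000752 under the replicate block), and in control shRNA cells 2.09 ± 0.27 (1.39e-05), where the PGE2 libraries spread over 29.5, 60 and 37.5 CPM. The difference of effects was -1.40 ± 0.39 (0.0332), a call that was lost in 7 of 12 fits with 1 library left out, with only the groups compared in the fit (-1.39, 0.0586) and with no filter on low counts (-1.38, 0.0767). Without the control shRNA libraries numbered 2 it was -1.32 (0.00153). IL-4 lowered it in the Etv1 shRNA (-1.02 ± 0.27, 0.0166) and control shRNA populations (-1.38 ± 0.28, 0.00134), and its wild type value was -0.25 ± 0.12 (0.109).

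Genes with the most similar patterns were looked up as the smallest root mean square difference between log2 group means over the 10 groups, each centred within its experiment, among 9299 genes of at least 5 CPM. For Pde3b, whose own pattern had a root mean square of 1.59, these were Nr4a2 (0.23), Cytip (0.31) and Ptprn (0.34), and for Pde4d (own 1.45) Itga9 (0.26), Timp1 (0.26) and Isy1 (0.29). Pde4b (own 2.01) had none as close: Srgn was at 0.49, Il1r1 at 0.5 and Pxdc1 at 0.52. For Pde8a (own 0.66) they were Evi5l, Raet1d and Ugdh (0.17 to 0.18), and for Pde7b (own 0.75) Dock4 (0.23), Tbc1d2b (0.34) and Mettl7a1 (0.35). Pde1b (own 0.49) lay nearest to Plk4, Phf19 and Foxm1 (0.14 to 0.17). Pde4a and Pde7a varied little (own 0.26 and 0.27), and their neighbours Ppm1f, Jak3 and Hagh, and Tbc1d12, Rexo5 and Madd, were within 0.08 to 0.11.

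Of the 15 other phosphodiesterase genes of the mouse examined, 6 were tested in wild type cells. With PGE2 Pde5a rose and 2 fell (Pde1c and Pde8b), where 59.4% of all genes were called. Pde10a and Pde11a were also higher with PGE2, but in wild type cells they passed the filter on low counts through the PGE2 libraries. Their rises there are thus described only and are not counted. Pde10a, an enzyme known from the striatum that takes both nucleotides, had 11.7, 12.8 and 13.3 CPM with PGE2. It had 0.61, 0.0797 and 0.156 CPM with IL-4, or 439 against 10 counts over the group. The gene was thus nearly silent without PGE2 in these cells, and the 3 PGE2 libraries were all far above the rest. Pde10a rose in both hairpin populations too, to 7.94 ± 2.09 CPM with PGE2 against 1.86 ± 0.77 CPM with IL-4 in Etv1 shRNA cells. In control shRNA cells it rose to 23 ± 5.81 against 1.63 ± 0.622 CPM, with a difference of effects of -1.74 ± 0.53 (edgeR adjusted p = 0.0418). Pde11a had 47 counts with PGE2 and 2 with IL-4 in wild type cells and was not tested in shRNA cells. Pde5a, a cyclic GMP enzyme, had 4.06 ± 1.5 CPM with PGE2 and 2.23 ± 0.261 CPM with IL-4 (0.83 ± 0.26, adjusted p = 0.00881).

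Pde8b fell to 3.79 ± 0.268 CPM with PGE2, against 5.59 ± 0.345 CPM with IL-4 (-0.56 ± 0.15, edgeR adjusted p = 0.00351), the reverse of Pde8a, its relative in the PDE8 family. Pde1c fell to 13 counts over the group with PGE2, against 63 with IL-4 (adjusted p = 0.000311). Pde6d, better known as a carrier of prenylated proteins, had 25.9 ± 2.53 CPM with PGE2 and 23.8 ± 2.38 CPM with IL-4 (0.12 ± 0.11, adjusted p = 0.329). The 9 genes tested in neither experiment (Pde1a, Pde3a, Pde4c, Pde6a, Pde6b, Pde6c, Pde6g, Pde6h and Pde9a) had group means of at most 0.591 CPM.

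Other genes of the pathway were read against the 59.4% of all genes called with PGE2 in wild type cells, 47.5% in Etv1 shRNA and 59.4% in control shRNA cells. Wild type cells given PGE2 had none of 6 tested genes of PGE2 receptors and G proteins higher, and 3 lower: Ptger2 (-0.64 ± 0.15, edgeR adjusted p = 0.00238), Gnai3 (-0.11 ± 0.05, 0.0427) and Gnas (-0.10 ± 0.04, 0.0457). Ptger4 gave -0.02 ± 0.11 (0.909) there, and fell by test in Etv1 shRNA (-1.48 ± 0.13) and control shRNA cells (-1.20 ± 0.13). Gnai1, an inhibitory G protein subunit, rose in Etv1 shRNA (2.26 ± 0.62) and control shRNA cells (2.48 ± 0.82), and Gnal, a stimulatory one, rose in Etv1 shRNA cells (1.91 ± 0.55). Of 4 tested adenylyl cyclases 2 rose and 1 fell in wild type cells: Adcy3 (0.54 ± 0.12, 0.00123), Adcy9 (0.21 ± 0.08, 0.0307) and Adcy7 (-0.26 ± 0.04, 1.46e-05). Adcy7, at 522 ± 19 CPM with PGE2 and 627 ± 22 CPM with IL-4 the highest of them, also fell in Etv1 shRNA (-0.53 ± 0.08) and control shRNA cells (-1 ± 0.08). Adcy9 went the other way in control shRNA cells (-0.68 ± 0.08, 9.76e-07). Adcy3 gave 0.11 ± 0.18 (0.645) in Etv1 shRNA cells and rose in control shRNA cells (1.55 ± 0.18, 1.29e-06), with a difference of effects of -1.44 ± 0.25 (0.00135).

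Among 7 tested effectors of cyclic AMP, wild type cells given PGE2 had 2 higher and 3 lower, where 59.4% of all genes were called. The PKA regulatory subunit Prkar1a rose (0.55 ± 0.04, edgeR adjusted p = 1.76e-10), as did the catalytic subunit Prkaca (0.15 ± 0.05, 0.0175), and the regulatory subunits Prkar1b (-0.93 ± 0.14, 6.07e-06) and Prkar2a (-0.40 ± 0.06, 3.6e-06) and the exchange factor Rapgef3, also called EPAC1 (-1.35 ± 0.25, 8.92e-05), fell. Of 10 tested PKA inhibitors and anchors 5 rose (Pkib, Akap6, Akap9, Akap7 and Pkig) and 3 fell (Akap1, Akap10 and Akap8). Pkib, a PKA inhibitor, changed by 0.62 ± 0.06 (1.62e-08), Akap6 by 1.70 ± 0.30 (3.06e-05), Akap1, which anchors PKA at mitochondria, by -0.91 ± 0.11 (2.03e-07), and Akap8 by -0.30 ± 0.05 (2.32e-05). The export pumps split: Abcc4 rose (0.28 ± 0.09, 0.0139) and Abcc5 fell (-0.76 ± 0.05, 1.71e-11). In the cyclic GMP list only the receptor Npr1 was tested in wild type cells, and it rose (0.88 ± 0.27, 0.00922).

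Of 9 CREB factors and regulators, 6 were higher and none lower with PGE2 in wild type cells, 7 higher and 1 lower in Etv1 shRNA cells and 8 higher and none lower in control shRNA cells. All genes were called higher and lower in nearly equal parts, 29.9% and 29.5% in wild type, 24.6% and 22.8% in Etv1 shRNA and 29.3% and 30.1% in control shRNA cells. Crem had 291, 318 and 326 CPM with PGE2, against 11.2, 13.5 and 11.2 CPM with IL-4 in wild type cells. The coactivator Crtc3 rose by 1.25 ± 0.07 (edgeR adjusted p = 1.98e-13), the kinase Sik1, itself a known CREB target, by 0.80 ± 0.08 (1.24e-08), Sik3 by 0.73 ± 0.07 (4.76e-09), Atf1 by 0.43 ± 0.06 (2.33e-06) and Creb1 by 0.38 ± 0.07 (3.01e-05). Sik1 also rose with valinomycin, by 1.68 ± 0.08 against IL-4. Against valinomycin, Crem, Crtc3 and Sik3 were higher with PGE2, Sik1 (-0.87 ± 0.07) and Atf1 were lower, and Creb1 was not called. With PGE2 against IL-4 in wild type cells, the median log2 fold change was 0.43 over this list and 1.6 over the 8 phosphodiesterases. That of all genes was 0.01. Both lists were chosen with earlier results of these data known, so the medians describe them and do not test them.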

How the data were processed

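Poly(A) RNA libraries of 30 macrophage samples were deposited as counts per gene. The authors aligned reads with STAR to GRCm38 and counted with featureCounts, per the submitters' processing notes, without versions; the strand setting and the annotation release are not given in the sources used here. Counts per gene cannot tell the isoforms of a phosphodiesterase apart. Names, positions and exon lengths came from GENCODE M21, in which 97.52% of the IDs matched. Unmatched IDs held 0.153% of the reads. Pde2a has no row under its own ID, so 8 genes were analysed in place of 9.

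The wild type and shRNA experiments were fitted apart, each with all its groups, with edgeR 4.0.16 (quasi-likelihood test, robust, TMM, filterByExpr) in R 4.3.3. P-values were adjusted by Benjamini-Hochberg over all genes, and genes under 0.05 were called. The SE was derived from the F statistic of each test, and 95% intervals use it with the residual degrees of freedom. The steps were tested on simulated data for the PGE2 comparison. Log2 changes of 1 were recovered in 97% of genes in wild type and in control shRNA cells. Those of 0.5 were recovered in 57% and 60%. The simulation gave all genes and libraries the same spread, so it does not cover libraries that stand apart. Totals were 6924973 to 30473040 counts, and 3 counts correspond to 0.22 to 0.292 CPM in wild type and 0.108 to 0.403 CPM in shRNA libraries, a limit that covers counting error only. Replicates of each group differed by more than sampling noise (lowest chi-square per degree of freedom 1.246).

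The alternatives were DESeq2 1.42.0, other size factors, no filter, no robust estimation, the groups of a comparison alone, the replicate block, leaving out each library, and, chosen after seeing the data, leaving out the control shRNA libraries numbered 2 together. Replicate numbers come from the labels, which do not say what they mark. Same-numbered libraries deviated together, with every correlation over 0.1, for PGE2 against valinomycin (0.17 to 0.32). They also did so in both comparisons in control shRNA cells (0.28 to 0.67) and in both in Etv1 shRNA cells (0.2 to 0.54). For library 3 of control shRNA cells in the PGE2 comparison, the highest correlation with another number was larger (0.33, against 0.28). All these comparisons were taken as paired. The values and calls reported nevertheless come from the fit without the replicate block, unless the block is named, so their p-values ignore this pairing. The block gives a number the same effect in all groups of an experiment, both hairpins included. A block within each hairpin was not fitted. The text names the 9 genes, Etv1, Crem, up to 4 genes of each pathway list with the smallest adjusted p for PGE2 in wild type cells, members of counts of 5 or fewer, and 3 nearest patterns per gene. Creb1 is named outside this rule, and levels of Ptger2 are also given for shRNA cells. Ptger4, Gnai1, Gnal, Adcy3, Adcy7 and Adcy9 in shRNA cells were added after their values were seen. The members and lists were chosen with earlier results of these data known. A marker gene is not reported here and is left out of the sums and counts.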

Additional observations from a re-analysis of the deposited data

Results flagged for a closer look

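The effect of PGE2 was tested for a difference between Etv1 shRNA and control shRNA cells, by an interaction test in edgeR. It was called for 3 of the 8 phosphodiesterase genes and for the row that overlaps Pde2a, where 11.6% of all genes were called. The log2 difference, Etv1 shRNA minus control shRNA, was -1.28 for Pde4d, -1.09 for Pde3b, -0.79 for Pde4b and -1.4 for Gm45837. Without the control shRNA libraries numbered 2, which stand apart, Pde3b was at -0.98 and not called (edgeR adjusted p = 0.0512). The call of Gm45837 was lost in 7 of 12 fits with 1 library left out. Pde4b was lower in Etv1 shRNA cells in all 3 conditions and Pde4d with PGE2. For Pde3b the PGE2 levels overlapped and the IL-4 levels were higher in Etv1 shRNA cells. The summed macrophage markers were also lower in Etv1 shRNA cells, and their part in these differences was not tested. Groups of 3 libraries were too small for the gap test of single values.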

How the results depend on the processing

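Of 1504 member values recomputed under alternatives, 1408 kept their direction and their side of the threshold. Of the 826 that belong to called changes, 20 lost the call and 0 changed sign. Of the 678 others, 37 became called and 39 took the opposite sign without being called. No scaling moved the median of all genes by more than 0.1. The number of members called for IL-4 in Etv1 shRNA cells was 5 with upper quartile factors, against 3 with TMM, and for IL-4 in control shRNA cells it was 3 to 5 with 1 library left out, and 3 without the first unstimulated library. Across all genes, the difference of the IL-4 effect had 984 calls with the replicate block, against 559 without, 1100 without the control shRNA libraries numbered 2 (chosen after seeing the data), and 360 to 762 with 1 library left out (361 without the first and 360 without the third control shRNA library given IL-4). Beside the calls given in the report, the replicate block, shared by both hairpins, changed no other call in the paired comparisons. Where the numbers are only shared (IL-4 or valinomycin or PGE2 against their references in wild type cells, and the hairpin comparisons), same-number correlations were -0.15 to 0.36.

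Values that changed sign were uncalled. The widest was the IL-4 difference of Pde7b, 0.03 with all libraries and -0.55 without the control shRNA libraries numbered 2, where Pde8a had an IL-4 difference of -0.05 and a PGE2 difference of -0.02. For Pde7a the IL-4 difference was 0 with DESeq2, no filter, relative log expression and upper quartile factors, and for Pde8a the PGE2 difference was -0.01 with DESeq2 and relative log expression factors. With 1 library left out, the PGE2 difference ranged over -0.32 to 0.04 for Pde1b, -0.01 to 0.13 for Pde4a, -0.19 to 0.01 for Pde7a and -0.02 to 0.03 for Pde8a, and the IL-4 difference over -0.35 to 0.05 for Pde4d, -0.05 to 0.09 for Pde7a, -0.54 to 0.37 for Pde7b and -0.02 to 0.05 for Pde8a. PGE2 against IL-4 for Pde1b ranged over -0.14 to 0.17 in Etv1 shRNA and -0.03 to 0.3 in control shRNA cells. IL-4 against no stimulus ranged over -0.07 to 0.33 for Pde4d in Etv1 shRNA cells and -0.01 to 0.1 for Pde4a in control shRNA cells. The hairpin difference ranged over -0.14 to 0.03 for Pde3b with PGE2 and -0.07 to 0.24 for Gm45837 unstimulated. The Gm45837 difference of PGE2 effects ranged over -1.6 to -1.09 and lost its call in 7 of 12 cases. The causes were not tested.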
